A study of Mus musculus with 11 samples.

Results

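The 3 genes *Cbln4*, *C1qtnf3* and *Itga11* were followed across mouse maxillary molar tooth germs at embryonic day (E) 14.5. They are 3 of the 16755 genes listed, and they were chosen by symbol because their levels were higher in *Cilk1*-/- than in wild-type libraries in an earlier analysis of the same values. Their difference between *Cilk1*-/- and wild type is therefore a description, with no test. Comparisons with the compound mutant reuse the same libraries, so they are also given without a test. Wild-type embryos (*Cilk1*+/+, 4 libraries) were compared with *Cilk1*-/- embryos (4 libraries) and *Cilk1*-/-;PCS1-MRCS1△/△ embryos (3 libraries, called the compound mutant here). *Cilk1* encodes a kinase of the primary cilium, the organelle through which cells receive Hedgehog signals. In both mutants exon 6 of *Cilk1* was removed in the germline with *EIIa-Cre*, so the loss is not limited to epithelium or mesenchyme, and the compound mutant also lacks the 70 kb region from PCS1 to MRCS1, which holds oral enhancers of *Shh*. All mice were kept on a C57BL/6 background with both sexes mixed, the labels describe the embryos as littermates, and each biological replicate held n = 6, where the sources do not state what was counted. No group with the PCS1-MRCS1 deletion alone was analysed here, so in the compound mutant the deletion cannot be told apart from its combination with *Cilk1* loss.

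*Cbln4* and *C1qtnf3* encode secreted proteins that end in a C1q-like globular domain, through which family members form trimers. Cerebellins such as Cbln4 are known from the brain, where they sit between nerve terminals and their targets and bind neurexins and, for Cbln4, the netrin receptors Dcc and Neo1. C1qtnf3, also called CTRP3 or cartducin, belongs to the adiponectin-like branch and is known as a hormone-like factor of fat and of cartilage precursors. *Itga11* encodes the integrin α11 subunit, which pairs with integrin β1 to form a fibroblast receptor for fibrillar collagens. In mouse teeth it is known from the periodontal ligament and from incisor eruption.

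The proximal promoters are shown because the 3 genes were all higher in *Cilk1*-/- libraries and a reader may compare the sequence at their starts. Each window runs from 250 bases before to 50 bases after the RefSeq start on the gene's own strand (build GRCm38.p6), and all 3 members matched the RefSeq table. *Cbln4* lies at chr2:172036233-172043466 on the minus strand with 3 exons. *C1qtnf3* lies at chr15:10952332-10980150 on the plus strand with 6 exons in its longest annotated transcript. *Itga11* lies at chr9:62677826-62783982 on the plus strand with 30 exons, on the same chromosome as *Cilk1*, whose start is 15.3 Mb beyond the end of *Itga11*. No other annotated gene overlaps any of them. Capitals mark matches to the TATA box (TATAAA) or the GC box (GGGCGG), searched on both strands.
Cbln4 promoter (chr2:172043417-172043716, minus strand): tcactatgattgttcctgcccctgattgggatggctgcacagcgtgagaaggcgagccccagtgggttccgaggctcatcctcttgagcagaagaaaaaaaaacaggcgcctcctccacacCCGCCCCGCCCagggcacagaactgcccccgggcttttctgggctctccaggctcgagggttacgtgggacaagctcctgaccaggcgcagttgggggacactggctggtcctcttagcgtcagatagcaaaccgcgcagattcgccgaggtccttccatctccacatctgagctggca
C1qtnf3 promoter (chr15:10952082-10952381, plus strand): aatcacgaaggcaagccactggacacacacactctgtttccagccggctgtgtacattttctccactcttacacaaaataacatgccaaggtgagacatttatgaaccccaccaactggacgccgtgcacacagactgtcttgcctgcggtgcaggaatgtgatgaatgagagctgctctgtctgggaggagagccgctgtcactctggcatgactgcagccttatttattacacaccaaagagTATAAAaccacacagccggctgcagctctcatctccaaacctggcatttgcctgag
Itga11 promoter (chr9:62677605-62677904, plus strand): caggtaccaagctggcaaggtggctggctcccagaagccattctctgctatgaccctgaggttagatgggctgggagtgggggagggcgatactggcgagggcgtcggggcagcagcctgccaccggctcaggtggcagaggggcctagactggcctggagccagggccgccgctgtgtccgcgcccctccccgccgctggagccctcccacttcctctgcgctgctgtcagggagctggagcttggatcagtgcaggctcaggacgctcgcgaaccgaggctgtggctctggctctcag
The windows had little in common. The *Cbln4* window held 2 overlapping GC boxes on the opposite strand, starting 129 and 124 bases before the start, and 35.7% of the 32851 promoters in the table hold at least 1. The *C1qtnf3* window held 1 TATA box, 6 bases before the annotated start, a motif found in 13.6% of promoters. The *Itga11* window held neither. The letters CCACCC, the core of the Gli motif that Hedgehog signalling uses and also part of boxes for other zinc finger factors, were in none of the 3 windows and in 31.5% of all promoters. The Lef/Tcf core CTTTGA was in none of them and in 16% of all promoters. The GC content was 60.3% for *Cbln4*, 50.7% for *C1qtnf3* and 68.0% for *Itga11*, where the median promoter had 52.7%. CpG pairs numbered 15, 7 and 16 in the same order, and the median promoter had 7.

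The deposited values are log2(value + 1) of a normalized level that is probably FPKM, a measure per length of transcript. A linear level below is 2 to the power of the deposited value, less 1. Read counts were not used here and the depth is unknown, so the precision of each value rests on the spread between libraries. In bulk tissue a lower value from fewer cells of a type and one from less RNA per cell cannot be told apart. The targeted gene, listed under its older symbol *Ick*, had a mean log2 value of 3.53 ± 0.08 (SD, n = 4) for wild type, 2.80 ± 0.07 (SD, n = 4) for *Cilk1*-/- embryos and 2.64 ± 0.03 (SD, n = 3) for the compound mutant, and both mutants lay below every wild-type library. All 7 dental epithelium and all 8 dental mesenchyme markers were listed. The epithelial markers summed to linear levels of 833 to 1055 in wild type, 887 to 1121 in *Cilk1*-/- and 483, 711 and 1194 in compound mutant replicates 1 to 3, and the mesenchymal markers to 770 to 860, 690 to 799 and 504, 809 and 575, with none of these markers called (limma). The part of these shifts in the member values was not tested. Compound mutant replicate 1 stood apart, with the lowest sum of both lists and with summed linear levels of 1025 for 11 cartilage markers and 236 for 9 neuronal markers, against 45.4 to 96.3 and 41.7 to 86.4 in the other 10 libraries. For the members and the called genes that use the compound mutant, values without that library are given below. In the deposited values, each wild-type library mirrors the *Cilk1*-/- library of its number, with correlations of their deviations between -0.89 and -0.74 over all genes, so the spreads in these groups are not independent.

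*Cbln4* was scarcely measured in wild-type molars and was several-fold higher in both mutants, most of all in *Cilk1*-/-. The wild-type log2 values were 0.95, 0.28, 0.30 and 0.36 for replicates 1 to 4. In *Cilk1*-/- they were 1.74, 2.48, 2.43 and 2.28. In the compound mutant they were 1.75, 1.55 and 1.07 for replicates 1 to 3. The groups ran in the order wild type, compound mutant, *Cilk1*-/-, with wild-type replicate 1 above its group and *Cilk1*-/- replicate 1 below its own. The mean linear level was 0.415 ± 0.343 (SD, n = 4) for wild type, 3.79 ± 1.02 (SD, n = 4) for *Cilk1*-/- embryos and 1.79 ± 0.641 (SD, n = 3) for the compound mutant. *Cilk1*-/- thus had 9.14 times the wild-type linear level, a log2 difference of 1.76 (SE 0.21), and 15.5 times it without wild-type replicate 1. The compound mutant had 4.32 times the wild-type linear level (7.35 times without wild-type replicate 1), a log2 difference of 0.98 (SE 0.23), and no compound mutant library overlapped the wild type. Between the mutants, the compound mutant had 0.473 times the *Cilk1*-/- level, a log2 difference of -0.78 (SE 0.23), and the groups touched, since compound mutant replicate 1 was 0.0075 above *Cilk1*-/- replicate 1 on the log2 scale. Without compound mutant replicate 1 that log2 difference was -0.92 and the one from wild type was 0.84.

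*C1qtnf3* was a well expressed gene of the tooth germ, and its level was higher in *Cilk1*-/- alone. The wild-type log2 values were 5.03, 5.33, 5.33 and 5.21. In *Cilk1*-/- they were 5.89, 6.35, 6.49 and 6.50. In the compound mutant they were 5.24, 5.05 and 5.41. The compound mutant libraries lay within and just above the wild-type range, and every *Cilk1*-/- library lay above all the others. The mean linear level was 36.5 ± 3.51 (SD, n = 4) for wild type, 79.3 ± 14.5 (SD, n = 4) for *Cilk1*-/- embryos and 36.8 ± 4.72 (SD, n = 3) for the compound mutant. *Cilk1*-/- had 2.17 times the wild-type linear level, a log2 difference of 1.08 (SE 0.13). The log2 difference between compound mutant and wild type was 0.01 (SE 0.15), with a 95% interval from -0.31 to 0.33. The compound mutant had 0.464 times the *Cilk1*-/- linear level, a log2 difference of -1.08 (SE 0.15), and a gap of 0.48 separated the closest libraries of these groups. Without compound mutant replicate 1 the last difference was also -1.08.

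*Itga11*, the collagen receptor subunit, was higher in both mutants to a like degree. The wild-type log2 values were 2.16, 1.76, 2.04 and 1.95. In *Cilk1*-/- they were 2.47, 3.10, 2.85 and 2.88. In the compound mutant they were 2.88, 2.33 and 2.79. The mutants overlapped each other and neither overlapped the wild type. The mean linear level was 2.95 ± 0.462 (SD, n = 4) for wild type, 6.18 ± 1.25 (SD, n = 4) for *Cilk1*-/- embryos and 5.44 ± 1.25 (SD, n = 3) for the compound mutant. The ratio to the wild-type linear level was 2.09 for *Cilk1*-/- and 1.84 for the compound mutant, with log2 differences of 0.85 (SE 0.15) and 0.69 (SE 0.17). The log2 difference between the mutants was -0.16 (SE 0.17), with a 95% interval from -0.53 to 0.21. Without compound mutant replicate 1 it was -0.27, and the difference from wild type was 0.58.

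**Figure D1:**
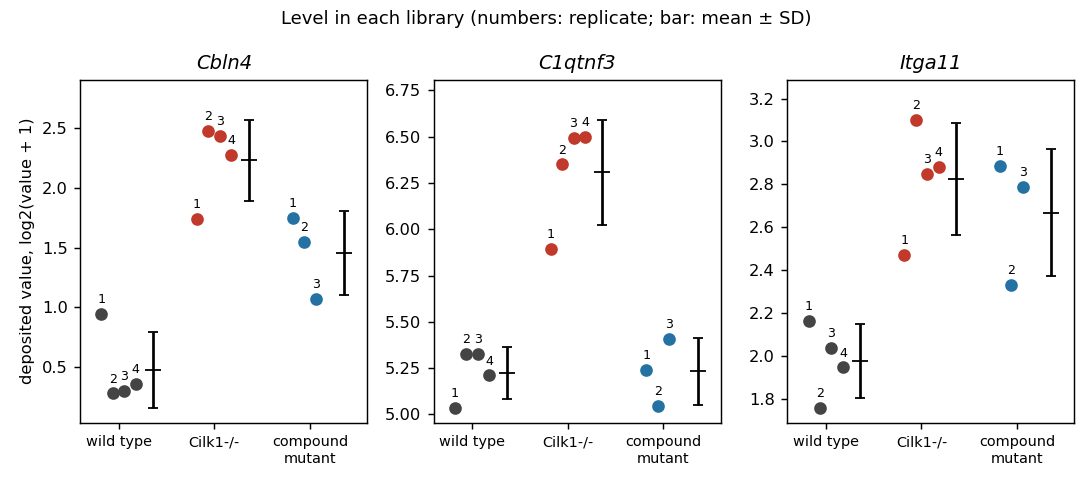
Each point is a library's deposited value on the log2(value + 1) scale (y axis, one scale per gene), numbered by replicate, for wild type (n = 4), *Cilk1*-/- (n = 4) and the compound mutant (n = 3), and the black bar gives the mean ± SD. *Cbln4* in the compound mutant (1.07 to 1.75) lies between the other groups, *C1qtnf3* in the compound mutant (5.05 to 5.41) lies at the wild-type level, and *Itga11* in the compound mutant (2.33 to 2.88) lies with *Cilk1*-/-.

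The members differed in how common their transcripts were. On the deposited scale, 13.8% of the listed genes had a lower mean than *Cbln4* in wild type, 37.3% in *Cilk1*-/- and 27.5% in the compound mutant. For *C1qtnf3* these shares were 88.8%, 96.4% and 89.3%. For *Itga11* they were 34.6%, 46.2% and 43.6%. By the size of the log2 difference between *Cilk1*-/- and wild type, the values the choice rests on, *Cbln4* stood second, *C1qtnf3* stood at place 7 and *Itga11* at place 21 from the highest of all 16755 genes. All 3 members were higher in *Cilk1*-/- without overlap between the libraries, as were 10.2% of all genes (10.7% were lower without overlap), and nothing is read from that count. For compound mutant against wild type, 2 of the 3 members were higher without overlap, and 8.92% of all genes were (9.05% were lower without overlap). For compound mutant against *Cilk1*-/-, 1 of the 3, *C1qtnf3*, was lower without overlap, and 9.3% of all genes were (7.74% were higher).

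Joined by replicate number, the difference between *Cilk1*-/- and wild type was above 0 in 4 of 4 pairs for each member. Any pairing would give this, since these groups do not overlap. The difference was smallest in pair 1 for all 3. For *Cbln4* the log2 differences were 0.79, 2.20, 2.13 and 1.92 in pairs 1 to 4. For *C1qtnf3* they were 0.86, 1.02, 1.16 and 1.29. For *Itga11* they were 0.31, 1.35, 0.81 and 0.94. In *Cbln4* the mirroring was close: the wild-type and *Cilk1*-/- log2 values of a pair summed to between 2.64 and 2.76, so a high wild-type value came with a low *Cilk1*-/- value. *Itga11* sums ran from 4.63 to 4.89 and *C1qtnf3* sums from 10.9 to 11.8. Over the 4 pairs the SE of the mean difference was 0.33 for *Cbln4*, 0.09 for *C1qtnf3* and 0.21 for *Itga11*, where the fit that takes all libraries as independent gave 0.21, 0.13 and 0.15. With pair 1 left out, a choice made after seeing the data, the log2 difference was 2.08 for *Cbln4*, 1.16 for *C1qtnf3* and 1.03 for *Itga11*. By their library names, numbers 1 to 3 of wild type and *Cilk1*-/- form one set of libraries, and number 4 and the compound mutant form the other. Within the first set the log2 differences between *Cilk1*-/- and wild type were 1.71 for *Cbln4*, 1.02 for *C1qtnf3* and 0.82 for *Itga11* (3 against 3 libraries), and within the second, with 1 library each, they were 1.92, 1.29 and 0.94. Within the second set the compound mutant mean was 1.09 above the single wild-type library for *Cbln4*, 0.02 above it for *C1qtnf3* and 0.72 above it for *Itga11*. Against the single *Cilk1*-/- library of that set the differences were -0.82, -1.26 and -0.21 in the same order.

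**Figure D2:**
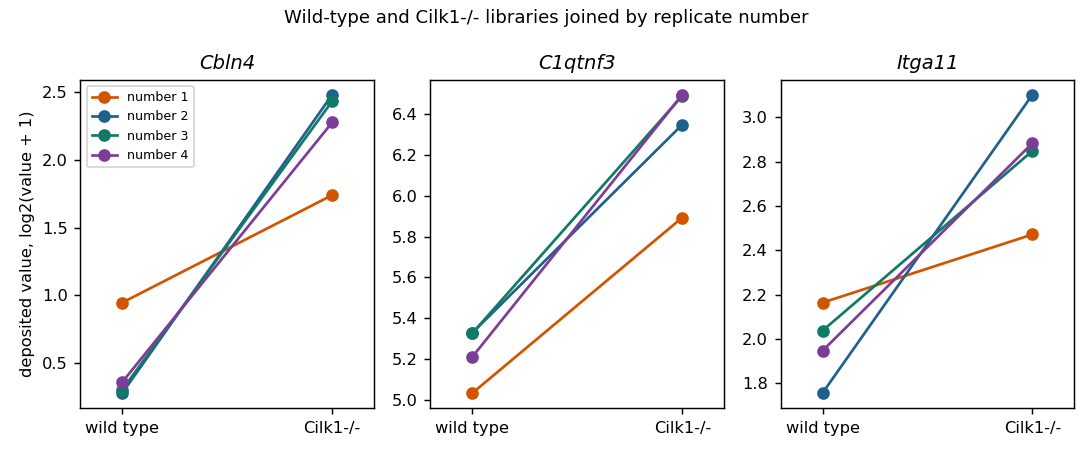
Lines join the wild-type and *Cilk1*-/- library of each replicate number (y axis, deposited log2(value + 1)). All lines slope upward, as they must where the groups do not overlap, and the line of number 1 has the smallest rise in each gene (0.79, 0.86 and 0.31 for *Cbln4*, *C1qtnf3* and *Itga11*).

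Among the other C1q-domain genes no change passed the test. Of 26 listed family genes beside the members, none was called in any of the 3 comparisons (limma, Benjamini-Hochberg adjusted p under 0.05 over all genes and a fold of at least 1.5), where 0.155% of all genes were called higher and 0.215% lower in *Cilk1*-/- against wild type. At an unadjusted p under 0.05 with the same fold, 1 of the 26 was lower in *Cilk1*-/- and none passed in the comparisons of the compound mutant. Of all genes, 0.752% passed these thresholds in either direction in *Cilk1*-/- against wild type, 2.98% in compound mutant against wild type and 2.09% between the mutants. Their median log2 difference between *Cilk1*-/- and wild type was -0.01, near the 0.00 of all genes, with 12 of 26 above 0. *Emilin1*, a matrix glycoprotein of elastic fibres and the family's most abundant gene here, differed by -0.05 (limma adjusted p = 0.82). *Col8a2*, a short-chain collagen, differed by 0.12 (limma adjusted p = 0.65). The following were chosen after their values were seen. *Cbln1*, the founding cerebellin, had log2 values of 2.97, 3.12, 3.15 and 3.15 in wild type and 2.47, 2.39, 2.19 and 2.15 in *Cilk1*-/-, so its values lay in the opposite order to those of *Cbln4*. The difference of -0.80 (SE 0.24) had a limma adjusted p of 0.10, and the compound mutant values of 2.34, 3.34 and 1.86 spanned both groups. *Cbln2* and *Cbln3* differed by 0.11 each between *Cilk1*-/- and wild type. *C1qtnf4*, a paralog of *C1qtnf3*, was 0.44 (SE 0.10) higher in *Cilk1*-/- with a limma adjusted p of 0.043 and under the fold of 1.5, and its adjusted p with the replicate number as a block was 0.19. In the compound mutant it was 0.08 above wild type (limma adjusted p = 0.63). For compound mutant against wild type, 1 of the 26, *Emilin3*, had a limma adjusted p under 0.05, with a difference under the fold of 1.5.

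**Figure D3:**
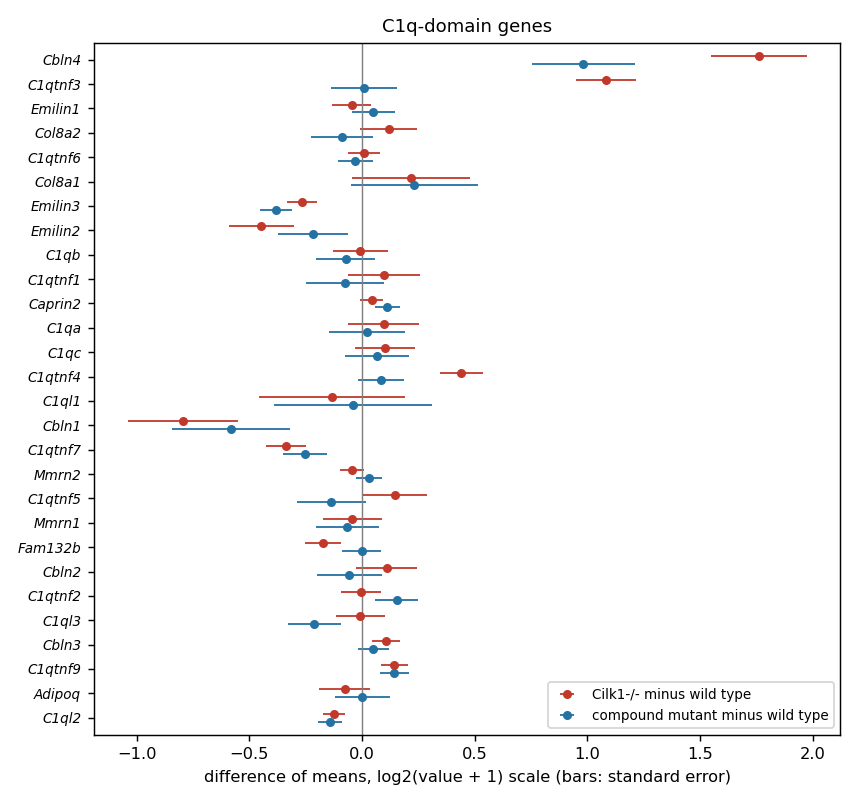
Points give the difference of group means on the log2(value + 1) scale (x axis) for each listed C1q-domain gene, *Cilk1*-/- minus wild type in red and compound mutant minus wild type in blue, with the standard error as bars; the 2 members stand on top and the rest follow by level. *Cbln4* (1.76 and 0.98) and, in red only, *C1qtnf3* (1.08) lie to the right of the other genes, and *Cbln1* (-0.80 in red) lies farthest to the left.

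Receptors that cerebellins are known to bind were listed in the tooth germs, and none of the 7 was called in any comparison. At an unadjusted p under 0.05 with the same fold, 0 passed for *Cilk1*-/- against wild type, 1 for compound mutant against wild type and 0 between the mutants. *Neo1*, the receptor with the highest level here, differed by -0.01 between *Cilk1*-/- and wild type and by -0.17 between compound mutant and wild type (limma adjusted p = 0.97 and 0.085). *Grid1*, a glutamate receptor-like protein of the postsynaptic side, differed by 0.13 and 0.15 (limma adjusted p = 0.43 and 0.33). The summed linear level of the 9 neuronal markers was 41.7 to 49.7 in wild type, 52.4 to 59.7 in *Cilk1*-/- and 58.5 to 236 in the compound mutant. This order differs from that of *Cbln4*, which was highest in *Cilk1*-/-, and the part of neuronal cells in the *Cbln4* values was not tested. All 9 neuronal markers had a higher mean in each mutant than in wild type. *Tubb3*, a neuronal tubulin, was the only one called, in compound mutant against wild type, where 0.615% of all genes were called higher. It had 3.35 times the wild-type linear level in the compound mutant (limma adjusted p = 0.027, 0.13 with the replicate block). Leaving out compound mutant replicate 1, its log2 difference was 1.03 (limma adjusted p = 0.024), and the neuronal sums of the other 2 compound mutant libraries were 58.5 and 86.4. Without wild-type replicate 1, 2 or 4 its adjusted p was 0.058 to 0.082.

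For *Itga11*, no change of its partner subunit or of the other collagen receptors passed the test. None of these 8 listed genes was called in any comparison. At an unadjusted p under 0.05 with the same fold, 0 passed for *Cilk1*-/- against wild type, and 1 passed in each comparison of the compound mutant. *Itgb1*, the β1 subunit that α11 needs, had mean log2 values of 6.96, 6.90 and 6.87 in wild type, *Cilk1*-/- and the compound mutant, and differed from wild type by -0.05 and -0.09 (limma adjusted p = 0.68 and 0.42). *Ddr1*, a receptor tyrosine kinase for collagen, differed by 0.05 and 0.13 (limma adjusted p = 0.75 and 0.33). *Mrc2*, an endocytic collagen receptor, differed by -0.08 and -0.01 (limma adjusted p = 0.46 and 0.93). Of the related α subunits, named after their values were seen, *Itga1* and *Itga2* were 0.18 and 0.26 above wild type in *Cilk1*-/-. *Itga10*, a collagen receptor of cartilage, had compound mutant log2 values of 3.24, 3.14 and 2.13 against wild-type values of 1.94 to 2.39, a difference of 0.66 (limma adjusted p = 0.12).

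Among the 24 listed integrin subunits beside *Itga11*, 1 was called, *Itga8*, an RGD-binding α subunit of mesenchyme, and it went the other way. Its log2 values were 4.07, 3.95, 3.75 and 4.10 in wild type, 3.30, 3.48, 3.61 and 3.30 in *Cilk1*-/- and 3.74, 3.15 and 2.91 in the compound mutant. It fell by 0.70 (SE 0.17) in the compound mutant against wild type (limma adjusted p = 0.038), where 0.633% of all genes were called lower, and the block by replicate number gave an adjusted p of 0.16. In *Cilk1*-/- it was 0.55 lower than wild type (limma adjusted p = 0.091). The call was lost without any one wild-type library, any one *Cilk1*-/- library or compound mutant replicate 3 (limma adjusted p from 0.053 to 0.11). Leaving out compound mutant replicate 1 gave a difference of -0.94 (limma adjusted p = 0.0059). The subunits with the highest levels beside *Itgb1* were *Itgb5*, a vitronectin receptor subunit, which differed from wild type by -0.09 and -0.30 in the 2 mutants (limma adjusted p = 0.67 and 0.12), and *Itga6*, an epithelial laminin receptor subunit, which differed by 0.05 and -0.04 (limma adjusted p = 0.88 and 0.87).

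Of the 11 genes of the fibrillar collagen class, 1 was called. *Col24a1*, a minor fibrillar collagen, had log2 values of 1.95, 1.62, 1.85 and 1.72 in wild type, 1.998, 2.44, 2.24 and 2.26 in *Cilk1*-/- and 3.06, 2.91 and 2.09 in the compound mutant. It rose by 0.90 (SE 0.20) in the compound mutant against wild type (limma adjusted p = 0.030), where 0.615% of all genes were called higher. With the replicate block the adjusted p was 0.15, and without compound mutant replicate 1, the library with the high cartilage markers, it was 0.069. Without wild-type replicate 2, 3 or 4 the adjusted p lay between 0.060 and 0.087. The major collagens had the highest levels on the list. *Col1a1*, *Col1a2* and *Col3a1* were 0.24, 0.24 and 0.21 above wild type in *Cilk1*-/- (limma adjusted p = 0.48, 0.31 and 0.51). In *Cilk1*-/-, 9 of the 11 collagens were above wild type, and the median difference was 0.20, with none called and none past an unadjusted p under 0.05 with the same fold. In the compound mutant, 8 of the 11 were above wild type with a median of 0.34, and 3 passed that threshold (*Col24a1*, *Col2a1* and *Col11a2*). The cartilage collagens were highest in compound mutant replicate 1. Replicates 1 to 3 had log2 values of 8.62, 4.88 and 3.82 for *Col2a1* (wild type 3.58 to 3.72). For *Col11a2* they were 6.59, 4.61 and 2.54 (wild type 2.11 to 3.57). Between the mutants the median was 0.13, with 6 of 11 above 0 and 2 past the same threshold. Of all genes, 2.98% and 2.09% passed in these 2 comparisons, in either direction. Of the 18 adhesion proteins that link integrins to the cytoskeleton, none was called in any comparison and none passed the fold at an unadjusted p under 0.05. In each mutant 14 of the 18 had a lower mean than wild type, and the median log2 differences were -0.05 (*Cilk1*-/-) and -0.06 (compound mutant). *Ilk*, a scaffold at integrin tails, differed from wild type by 0.00 in *Cilk1*-/- and *Parva*, its binding partner, by -0.05 (limma adjusted p = 0.97 and 0.76). *Actn1*, an actin crosslinker, was 0.24 lower in *Cilk1*-/- (limma adjusted p = 0.047, 0.21 with the replicate block). The following 3 were chosen after their values were seen. *Tln2*, a talin that links integrin tails to actin, was 0.42 lower in *Cilk1*-/- and 0.50 lower in the compound mutant than in wild type (limma adjusted p = 0.032 and 0.014, 0.16 and 0.11 with the replicate block). *Tns3*, a tensin, and *Vcl*, vinculin, were each 0.34 lower in the compound mutant than in wild type (limma adjusted p = 0.0088 and 0.027). All of these were under the fold of 1.5. Over the 6 lists together, 0 of 90 genes were called in *Cilk1*-/- against wild type, 2 of 90 in the compound mutant against wild type and 0 of 90 between the mutants.

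**Figure D4:**
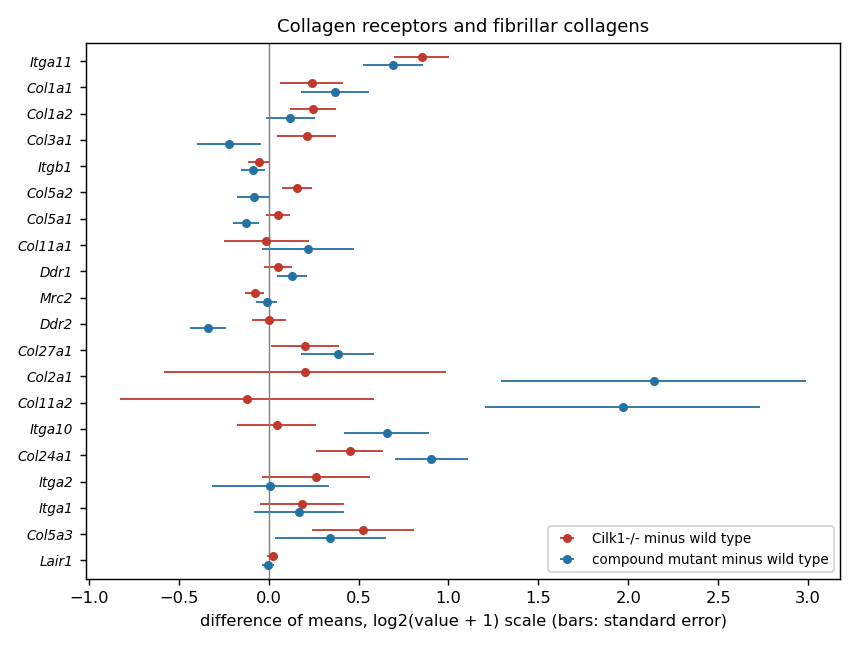
Points give the difference of group means on the log2(value + 1) scale (x axis) for each listed collagen receptor and fibrillar collagen, *Cilk1*-/- minus wild type in red and compound mutant minus wild type in blue, with the standard error as bars; *Itga11* stands on top and the rest follow by level. *Itga11* (0.85 and 0.69) lies to the right of 0 in both colours while its partner *Itgb1* lies at -0.05 and -0.09, and the 2 cartilage collagens *Col2a1* and *Col11a2* have the widest bars.

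Markers of fibrous connective tissue, whose fibroblasts are known to make integrin α11, had their highest median sum, like *C1qtnf3*, in *Cilk1*-/-. The summed linear level of 8 tendon and fibrous tissue markers was 529 to 710 in wild type, 622 to 910 in *Cilk1*-/- and 464 to 786 in the compound mutant. All 8 had a higher mean in *Cilk1*-/- than in wild type, and all 8 were lower in the compound mutant than in *Cilk1*-/-. Against wild type, 4 of the 8 were higher in the compound mutant, and the median sums were 567 and 538. *Itga11* differed from this, since each of its compound mutant libraries lay above every wild-type library. *Fmod* and *Dcn*, small proteoglycans that coat collagen fibrils, rose by 1.02 and 0.68 in *Cilk1*-/- against wild type (limma adjusted p = 0.025 and 0.042), where 0.155% of all genes were called higher. *Dcn* fell by 0.77 in the compound mutant against *Cilk1*-/- (limma adjusted p = 0.034). With the replicate block none of these was called (adjusted p = 0.14, 0.16 and 0.19), and without compound mutant replicate 1 the call of *Dcn* between the mutants was lost (limma adjusted p = 0.067). Skeletal muscle markers were also highest in *Cilk1*-/-, with sums of 8.55 to 26.2 in wild type, 17.3 to 47.2 in *Cilk1*-/- and 5.67 to 7.55 in the compound mutant. All 7 listed muscle markers had a higher mean in *Cilk1*-/- than in wild type, with none called, and all 7 were lower in the compound mutant than in *Cilk1*-/-. Between the mutants 0.388% of all genes were called lower, and 3 of these 7 markers were. These were the sarcomere genes *Actc1*, *Acta1* and *Myh3*, which fell by 2.35, 1.71 and 1.52 (limma adjusted p = 0.022, 0.042 and 0.032, and 0.18, 0.22 and 0.19 with the replicate block). Without compound mutant replicate 1 only *Actc1* of these 3 was called (limma adjusted p = 0.044, 0.086 and 0.060). The part of either tissue in the member values was not tested. Cartilage markers summed to 45.4 to 63.2 in wild type, 57.1 to 69.2 in *Cilk1*-/- and 89.7 to 1025 in the compound mutant. This order differs from that of *C1qtnf3*, and the part of cartilage in the member values was not tested. No list has a marker at 0 in all libraries.

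The genes whose levels followed each member most closely were sought among the 13027 genes with a mean log2 value of at least 1, by Pearson correlation over the 11 libraries. These libraries share genotypes and processing, including the mirrored pairs, so the values are descriptions. *Cbln4* was most like *Grin2d*, an NMDA receptor subunit (r = 0.98, Spearman's rho = 0.99), *Colgalt2*, an enzyme that adds galactose to collagen (r = 0.98), and *Zfr2* (r = 0.97). *Grin2d* had mean log2 values of 1.61, 2.29 and 2.08 in wild type, *Cilk1*-/- and the compound mutant. *C1qtnf3* was most like *Aspn*, a proteoglycan that binds collagen (r = 0.95, Spearman's rho = 0.82), *Nudt6* (r = 0.95) and *Pold4*, a subunit of DNA polymerase delta (r = 0.94). *Aspn* had mean log2 values of 6.02, 6.79 and 5.94, again with the compound mutant at the wild-type level. *Itga11* was most like *Pyroxd2* (r = 0.97, Spearman's rho = 0.98), *Thbs1*, a matrix glycoprotein (r = 0.96), and *Garnl3* (r = 0.95). *Thbs1* had mean log2 values of 4.78, 5.38 and 5.22. Among the members themselves r was 0.89 for *Cbln4* with *Itga11*, 0.77 for *Cbln4* with *C1qtnf3* and 0.66 for *C1qtnf3* with *Itga11*, and with the genotype means removed these were 0.56, 0.09 and 0.50.

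Some of the genes near *C1qtnf3* on chromosome 15 were, like *C1qtnf3* itself, highest in *Cilk1*-/-. Others were not: *Brix1*, *Rad1* and *Tars* had their highest mean in wild type, and *Dnajc21* had its highest in the compound mutant. Of the 11 listed genes within 500 kb of *C1qtnf3*, 3 were called lower in the compound mutant than in *Cilk1*-/-, where 0.388% of all genes were. These 3 lie on one side of *C1qtnf3* and within 85 kb of its end, were chosen after their values were seen, and share the *Cilk1*-/- libraries that *C1qtnf3* was chosen on. *Amacr*, an enzyme of branched fatty acid breakdown that starts 1.61 kb after *C1qtnf3* on the same strand, had log2 values of 3.89, 3.84, 3.74 and 3.87 in wild type, 4.08, 4.28, 4.39 and 4.21 in *Cilk1*-/- and 3.38, 3.85 and 3.51 in the compound mutant. *Rxfp3*, a receptor for relaxin-3 located 53.6 kb away on the opposite strand, had values of 1.24, 1.31, 1.13 and 1.39, then 1.76, 1.81, 1.99 and 1.75, then 0.71, 1.30 and 1.07. *Adamts12*, a secreted metalloproteinase 84.6 kb away, had values of 2.73, 2.70, 2.44 and 2.81, then 2.94, 2.98, 3.18 and 2.88, then 2.47, 2.24 and 2.19. For all 3, every *Cilk1*-/- library lay above every library of the other groups. Taken singly, 10.2% of all genes were higher without overlap in *Cilk1*-/- against wild type, and 9.3% were lower without overlap between the mutants. The share of genes with both was not counted. Between the mutants *Amacr* fell by 0.66 (SE 0.10), *Rxfp3* by 0.80 (SE 0.13) and *Adamts12* by 0.69 (SE 0.11) (limma adjusted p = 0.013, 0.014 and 0.012). In *Cilk1*-/- against wild type they were 0.41, 0.56 and 0.32 higher (limma adjusted p = 0.055, 0.041 and 0.10), each under the threshold of fold or p. *Slc45a2*, a melanosome transporter that lies between *Amacr* and *Rxfp3*, was near 0 throughout, with mean log2 values of 0.20, 0.25 and 0.06.

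These calls depend on the model. With the replicate block the adjusted p between the mutants was 0.12 for *Amacr*, 0.14 for *Rxfp3* and 0.15 for *Adamts12*, and with the set of libraries as a term it was 0.18 for each. Without compound mutant replicate 1 the adjusted p was 0.026 for *Amacr*, whose difference of -0.56 was then under the fold, and the other 2 stayed called. Whether the counting used strand is not given in the sources used here. Near the other 2 members no gene was called. None of the 6 listed genes near *Cbln4* and none of the 9 near *Itga11* was called in any comparison (limma). *Calml4*, a calmodulin-like gene 74.1 kb beyond *Itga11*, was chosen after its values were seen. Its log2 values were 2.97, 2.98, 2.81 and 2.80 in wild type, 2.52, 2.56, 2.77 and 2.73 in *Cilk1*-/- and 2.25, 2.42 and 2.32 in the compound mutant. The 3 groups did not overlap, and both mutants lay below wild type where *Itga11* lay above it. Of all genes, 10.7% were lower without overlap in *Cilk1*-/- against wild type, 9.05% in compound mutant against wild type and 9.3% between the mutants. These are shares of single comparisons, and the share of genes with all of them was not counted. *Calml4* was 0.56 lower in the compound mutant than in wild type (limma adjusted p = 0.0063, 0.085 with the replicate block), just under the fold. At an unadjusted p under 0.05 alone, 1, 2 and 1 of the genes near *Cbln4* passed in *Cilk1*-/- against wild type, compound mutant against wild type and between the mutants, as did 1, 1 and 2 of those near *Itga11* and 3, 6 and 5 of those near *C1qtnf3*. Over all genes the shares passing that threshold were 20.7%, 26.7% and 23.2% in the same order of comparisons.

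**Figure D5:**
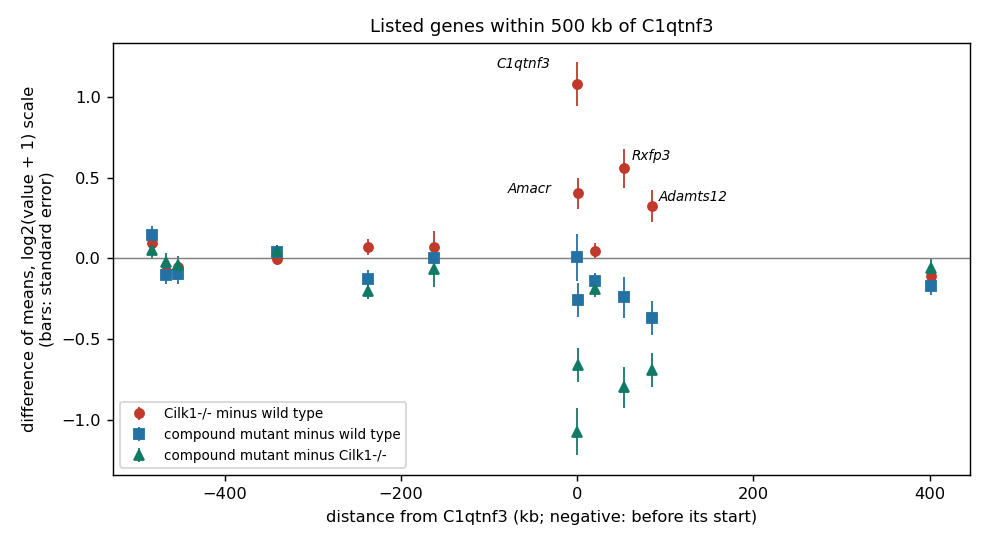
Each point is a listed gene within 500 kb of *C1qtnf3*, placed by its distance in kb (x axis) and its difference of group means on the log2(value + 1) scale (y axis), with the standard error as a bar, for *Cilk1*-/- minus wild type (circles), compound mutant minus wild type (squares) and compound mutant minus *Cilk1*-/- (triangles). *C1qtnf3*, *Amacr*, *Rxfp3* and *Adamts12* have circles above 0 (1.08, 0.41, 0.56 and 0.32) and triangles at -0.66 or below, while the other listed genes lie between -0.20 and 0.14.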

How the data were processed

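Maxillary molar tooth germs were dissected at E14.5 and poly-A RNA was sequenced (paired-end, Illumina) from 4 wild-type, 4 *Cilk1*-/- and 3 compound mutant libraries, grouped by the genotype in the labels. The authors mapped reads to mm10 with HISAT2 2.0.5 and counted them per gene with featureCounts 1.5.0-p3, as the submitters' processing notes and the paper's methods name them, and calculated FPKM from the counts and gene lengths. The deposited values are on a log2 scale, log2(value + 1) of a normalized value that is probably FPKM, for 16755 genes, and run from -0.45 to 12.1, with a value below 0 in 257 genes. Values below 0 are not possible for log2(FPKM + 1), and the sources used here name no step that gives them.

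The members and the gene lists were chosen with earlier results of these data known. Since no counts were used, all genes were tested with limma 3.58.1 in R 4.3.3 (lmFit, then eBayes with trend and robust), in one fit over the 3 genotypes without covariates and with Benjamini-Hochberg adjustment. Calls required an adjusted p under 0.05 and a fold of at least 1.5, a log2 difference of 0.585. No gene was filtered out. The script was tested on simulated data with known changes, in which libraries were independent of each other, unlike the mirrored pairs described next. Standard errors and 95% intervals of members come from the same fit. P-values measure the spread between these libraries.

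Over all genes, a wild-type library's deviations from its genotype mean correlated with those of its same-numbered *Cilk1*-/- library at -0.74, -0.89, -0.85 and -0.79 (numbers 1 to 4). There are 84 genes with some wild-type and *Cilk1*-/- pair at 0 in both libraries, none of these genes has a value below 0, and the correlations with the pair at 0 left out were 0.56, 0.56, 0.58 and 0.30 over 29, 72, 67 and 84 genes. The numbers were taken to pair these libraries, and values with the replicate number as a block are given where they change a call. The block places each compound mutant library by its number alone. With the block 2 genes were called higher and 2 lower in *Cilk1*-/- against wild type (0.0119% each) in place of 26 and 36, 7 and 19 (0.0418% and 0.113%) in the compound mutant against wild type in place of 103 and 106, and 0 and 2 between the mutants in place of 26 and 65.

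Genes named are the 3 members; from each of 6 lists (C1q-domain family, cerebellin receptors, collagen receptors, integrin subunits, fibrillar collagens, integrin adhesion proteins) the called genes and the 3 with the highest mean; the 3 genes most like each member; markers; and *Cilk1*. Others are said to have been chosen after their values were seen. Some genes that this rule names are not reported here. Counts over lists leave the members out. *C1ql4*, *C1qtnf12*, *Col10a1*, *Otol1*, *Gp6* and *Itgad* have no row under these symbols. Positions come from GENCODE vM21 (GRCm38) and promoters from RefSeq (GRCm38.p6). Alternatives were the block, a fit of only the 2 genotypes compared, the library set as a term, a pseudocount of 0.1, a filter at a mean log2 value of 1, eBayes without trend and robust, median centring, quantile normalization, other thresholds and leaving out each library. Python 3.11.15 with pandas 2.3.3 and matplotlib 3.10.9 made the tables and plots.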

Additional observations from a re-analysis of the deposited data

Results flagged for a closer look

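Of 62 groups of 4 libraries examined for a library far from the rest (Dixon's test at the 95% level), 5 had one. Chance alone gives about 1 in 20 where groups are independent, and these groups are not. The genes most like *Cbln4* were picked on these libraries, and the paired libraries mirror each other, so nothing is read from that rate. Wild-type replicate 1 stood apart for *Cbln4*, with a log2 value of 0.95 against 0.28 to 0.36 in the other wild-type libraries, a gap of 0.88 of the group's range. The same library stood apart for *Colgalt2*, one of the genes most like *Cbln4*, with 1.66. *Cilk1*-/- replicate 1 stood apart for *Grin2d* with 2.07, for the collagen receptor gene *Ddr1* with 5.18 and for *Parva*, a protein of integrin adhesions, with 5.76. All of these values come from pair 1, and the members' differences without that pair are given with the pairs above.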

How the results depend on the processing

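The 3 members kept the direction of their difference between *Cilk1*-/- and wild type in all 21 alternatives, several of which cannot change it by construction. The differences ranged from 1.68 to 3.06 for *Cbln4*, 1.02 to 1.22 for *C1qtnf3* and 0.76 to 1.03 for *Itga11*. Of 189 member differences under an alternative, 187 moved by under 1 SD of the replicates, and the other 2 were those of *Cbln4* with a pseudocount of 0.1 in place of 1, 3.06 for *Cilk1*-/- and 2.01 for the compound mutant, both against wild type, as a low gene gains from a smaller pseudocount by construction. The near-zero difference of *C1qtnf3* between compound mutant and wild type changed sign in 6 of 21 alternatives (-0.08 to 0.10), and that of *Itga11* between the mutants in 1, without compound mutant replicate 2 (0.01). The replicate block cannot move the members' differences between *Cilk1*-/- and wild type (1.76 for *Cbln4*), since each number holds 1 library of each, so their identity under it says nothing about stability.

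Counts over all genes depended on the model, and the cause was not tested. For *Cilk1*-/- against wild type the genes called higher and lower numbered 26 and 36 as reported, 2 and 2 with the replicate block (also when it placed the compound mutant with pair 4), 71 and 59 with only these genotypes fitted, 14 and 23 with the library set as a term, and 178 and 231 with no fold asked. They numbered 69 and 57 at an unadjusted p under 0.05 with the fold, and 70 were called higher with a pseudocount of 0.1. For compound mutant against wild type they were 103 and 106 as reported, 7 and 19 with the replicate block, 0 and 0 when it placed the compound mutant with pair 4, 12 and 22 with only these genotypes, 5 and 13 with the set term, 269 and 278 with a pseudocount of 0.1, and 473 and 629 with no fold asked, and 341 were higher at an unadjusted p. For compound mutant against *Cilk1*-/- they were 26 and 65 as reported, 0 and 2 with the replicate block, 0 and 0 when it used pair 4, 0 and 1 with only these genotypes, 0 and 1 with the set term, 78 and 216 with a pseudocount of 0.1, 187 and 163 at an unadjusted p, and 198 and 360 with no fold asked, and 16 were higher among genes with a mean of at least 1.

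Leaving out 1 library moved these counts from 7 to 45 and 8 to 50 in *Cilk1*-/- against wild type (lowest without *Cilk1*-/- replicate 4), from 29 to 476 and 51 to 195 in compound mutant against wild type (lowest without wild-type replicate 4, highest without compound mutant replicate 2), and from 4 to 224 and 29 to 247 between the mutants (highest without compound mutant replicates 2 and 3). Of the 90 list genes, the count called in *Cilk1*-/- against wild type was 1 with only these genotypes (*Cbln1*), 1 with a pseudocount of 0.1, 1 at an unadjusted p and 4 with no fold asked, and 0 to 1 with a library left out. In the compound mutant against wild type the 2 calls became 0 with the replicate block in either placing, with only these genotypes and with the set term, 7 at an unadjusted p and 6 with no fold asked, and 0 to 6 with a library left out. Between the mutants the count was 3 at an unadjusted p and 0 to 6 with a library left out, where it was 2 without compound mutant replicate 2 and 6 without replicate 3. Of the 3 genes most like each member, the top 3 by Spearman's rho shared 0 for *C1qtnf3* and 1 for *Itga11*, and the top 3 with the genotype means removed shared 0 for each member. *Amacr* was called lower between the mutants in 15 of 20 alternatives, *Rxfp3* and *Adamts12* in 16 of 20 each, with limma adjusted p from 0.0023 to 0.81, 0.0037 to 0.82 and 0.0082 to 0.81. With only these genotypes fitted the adjusted p was 0.11, 0.11 and 0.087. *Itga8* and *Col24a1* in compound mutant against wild type held their call in 7 and 12 of 20 alternatives. The calls of *Fmod* and *Dcn* in *Cilk1*-/- held in 11 and 10 of 20, and that of *Dcn* between the mutants in 9 of 20. Without counts, no depth could be set beside any value.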
